A study of Drosophila melanogaster with 2 samples.

Results

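The mitochondrial ribosomal protein genes of Drosophila melanogaster were examined for binding of the tagged protein CG32767-eGFP at their promoters. Members were all protein-coding genes of the Ensembl annotation with a symbol that starts with mRpL, for the large subunit, or mRpS, for the small subunit. This rule, which uses no measured value, gave 73 of 13945 protein-coding genes on the 6 chromosome arms, 47 of the large and 26 of the small subunit. A gene was called when the summit of a peak lay within 500 bp of one of its transcription start sites (TSSs), and 67 of the 73 genes had 1 distinct TSS.

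The data came from chromatin immunoprecipitation and sequencing (ChIP-seq), in which DNA bound by a protein is precipitated with an antibody and sequenced. Flies carried an inserted transgene for CG32767 fused to the green fluorescent protein eGFP, and an anti-GFP antibody was used on whole embryos of 0 to 24 h. There was 1 group of 2 biological replicates, no control was analysed here, and so no comparison between conditions was possible. Each collection spans all of embryogenesis and all tissues, so a summit cannot be assigned to a stage or a cell type. The authors' conservative list of 3533 peaks, made from both replicates, is the main list. The signal of a peak is a value the authors took from their peak caller, in its own units, and it describes and ranks peaks inside 1 list. No read counts come with the lists, so depth is unknown, and intervals on shares reflect counting error over genes alone.

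Mitochondria carry their own ribosome, which translates the few respiratory chain subunits encoded in mitochondrial DNA. Its RNAs come from mitochondrial DNA, while its proteins are encoded in the nucleus, made in the cytoplasm and imported. Some of these proteins have relatives in the bacterial ribosome, and others are found in mitochondrial ribosomes alone.

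Of the 73 genes, 19 had a main-list summit within 500 bp of a TSS (26.0%, 95% exact Clopper-Pearson interval 16.5 to 37.6%), beside 14.1% of all protein-coding genes. They were 11 of the 47 large-subunit genes (23.4%, 12.3 to 38.0%) and 8 of the 26 small-subunit genes (30.8%, 14.3 to 51.8%), with intervals that overlap widely. Their signals fell into an upper group of 7 genes, at 308 to 1104, and a lower group of 12, at 60.0 to 165, with none between. The 7 strong peaks were narrow, 194 to 322 bp wide. The 12 weaker ones all had the fixed width of 390 bp that 82.1% of main-list peaks have.

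The sequence under 5 of the 7 strong summits is set beside that under 5 of the 12 weaker ones. Each line gives the 101 bases centred on the summit, from the RefSeq dm6 assembly and read 5' to 3' on the strand of the named gene, and capitals mark stretches of 10 or more bases that hold only A and T. The windows shown overlap no annotated exon. The first 5 are from narrow peaks and the last 5 from peaks of 390 bp.
mRpS10 (chr3R:15229489-15229589, plus strand): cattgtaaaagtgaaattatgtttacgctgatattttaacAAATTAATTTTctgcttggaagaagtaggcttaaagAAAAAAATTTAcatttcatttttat
mRpS23 (chr2L:13835413-13835513, minus strand): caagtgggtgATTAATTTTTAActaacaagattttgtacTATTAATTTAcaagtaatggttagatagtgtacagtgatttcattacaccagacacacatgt
mRpL24 (chr2L:4945444-4945544, minus strand): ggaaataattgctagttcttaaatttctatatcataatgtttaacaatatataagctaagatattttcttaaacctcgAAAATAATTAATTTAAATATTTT
mRpL20 (chr3L:13018106-13018206, minus strand): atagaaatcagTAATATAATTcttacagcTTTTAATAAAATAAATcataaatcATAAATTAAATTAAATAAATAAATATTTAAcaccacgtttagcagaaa
mRpS2 (chr2L:4850517-4850617, minus strand): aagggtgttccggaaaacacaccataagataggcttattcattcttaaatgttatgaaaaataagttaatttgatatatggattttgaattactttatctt
mRpL4 (chr2L:16329179-16329279, minus strand): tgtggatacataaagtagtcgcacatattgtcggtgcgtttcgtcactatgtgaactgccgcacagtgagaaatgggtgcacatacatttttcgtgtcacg
mRpS6 (chr3L:4364422-4364522, plus strand): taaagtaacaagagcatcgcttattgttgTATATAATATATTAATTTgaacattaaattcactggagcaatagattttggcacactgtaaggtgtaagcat
mRpS7 (chr2L:10386431-10386531, plus strand): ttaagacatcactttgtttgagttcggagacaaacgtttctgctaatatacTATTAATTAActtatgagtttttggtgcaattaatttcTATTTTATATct
mRpL32 (chr3R:31252646-31252746, plus strand): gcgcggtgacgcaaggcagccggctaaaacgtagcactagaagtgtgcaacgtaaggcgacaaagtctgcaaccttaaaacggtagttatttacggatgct
mRpS24 (chr3R:24163705-24163805, minus strand): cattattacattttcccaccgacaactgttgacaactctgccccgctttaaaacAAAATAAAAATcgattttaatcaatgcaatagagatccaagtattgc
The mRpL20 window was 83.2% A and T with a run of 30 such bases, the longest among the 19 genes. In mRpS2 the A and T were spread out, 73.3% of bases with no run over 8. The mRpL4 and mRpL32 windows held 54.5% and 49.5%, and no stretch of 10. The mRpS6 and mRpS7 windows, also from weaker peaks, held 70.3% and 73.3% with runs of 18 and 10. Runs of 10 or more were found in 6 of the 7 narrow peaks and in 6 of the 12 of 390 bp, with the longest of the latter, 20 bases, at mRpS18C. The share of all main-list summits with such a run was not counted, and their median longest run was 9 bases.

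Over the 7 narrow peaks the A and T content of the 101 bases was 70.3 to 83.2%, with a median of 77.2%, and the median longest A and T run was 14 bases. Over the 12 peaks of 390 bp it was 42.6 to 73.3%, with a median of 56.4% and a median run of 9. The 5 summits that lay in the 5' untranslated region of a neighbouring gene were all among these 12, so width and place were not separated. The ranges of the 2 classes overlapped only between 70.3 and 73.3%, where mRpS23, mRpS2, mRpS6 and mRpS7 lay. The split by width was chosen after the values were seen. It was found beyond these genes as well, at smaller size. Main-list summits at protein-coding promoters had a median of 71.3% and a median longest run of 11 bases in narrower peaks (n = 328). In peaks of 390 bp (n = 1336) these medians were 62.4% and 9 bases. How far base composition affects signal or peak width was not tested.

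**Figure D1:**
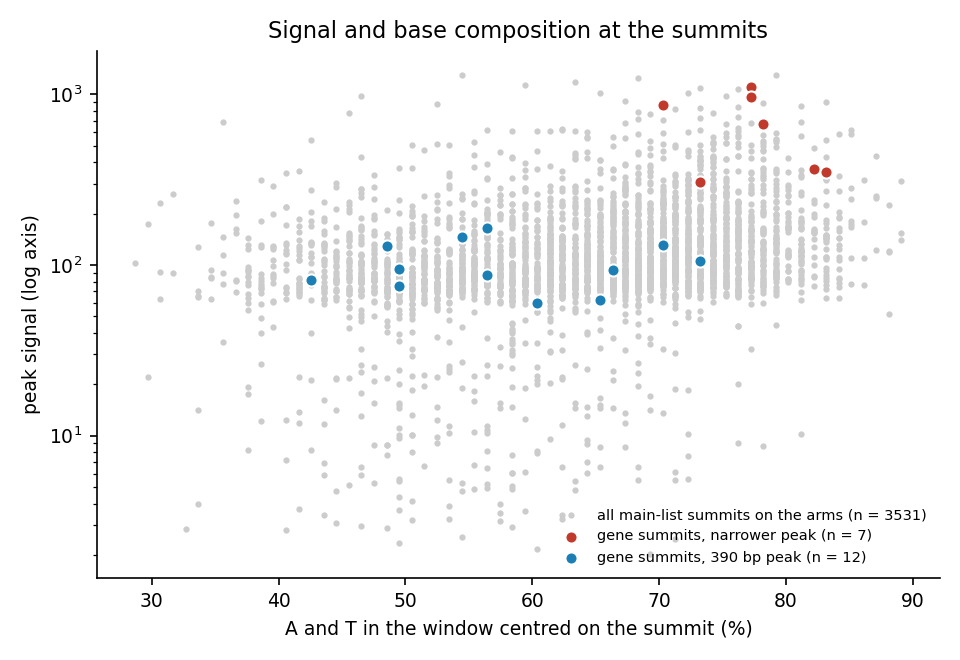
Peak signal (log axis) against the A and T content of the 101 bp around the summit, for 3531 main-list summits on the chromosome arms (grey) and the summits of the 19 called genes, in red for narrower peaks and blue for peaks of 390 bp. The 7 red points lie at 70.3% A and T or more and at signals of 308 or more, and the 12 blue points lie at 165 or less.

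Among proteins with bacterial relatives, mRpS10, part of the head of the small subunit, had the strongest peak, at 959.6 in the main list, 569.7 in replicate 1 and 381 in replicate 2. The gene mRpL23, for a protein at the exit of the tunnel through which the new chain leaves, had 666 in the main list, 443 in replicate 1 and 228 in replicate 2. Its neighbour at the tunnel exit, mRpL24, had 365, 226 and 131 in the same order. In all 3 genes replicate 1 gave the higher signal, and every summit passed the threshold in both replicate lists.

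The gene mRpL20, whose bacterial relative is needed early in assembly of the large subunit, had 351 in the main list, 225 in replicate 1 and 131 in replicate 2. For mRpS2, on the solvent side of the small subunit, the values were 308, 210.1 and 91.4. The 2 remaining strong peaks belonged to genes for proteins found in mitochondrial ribosomes and not in bacterial ones. One was mRpL41 of the large subunit, with 1104 in the main list, 715 in replicate 1 and 395 in replicate 2. The other was mRpS23 of the small subunit, with 867, 487 and 381. Both ranked among the strongest peaks of the whole list, mRpL41 at rank 6 and mRpS23 at rank 18, with mRpS10 between them at rank 13 and mRpL23 at rank 37. Across the 7 genes the signal in replicate 1 was 1.28 to 2.30 times that in replicate 2, and all 7 were in both replicate lists. The medians over all ranked candidates were nearly equal, 12.2 in replicate 1 and 11.9 in replicate 2, and over the 12 weaker genes the ratio had a median of 0.98. The replicates' scales were not set equal here, and the cause of the difference was not tested.

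In the lower group, mRpL2 and mRpL4 had the highest signals. The gene mRpL2, for a protein beside the peptidyl transferase centre, had 165 in the main list, 85.6 in replicate 1 and 84.1 in replicate 2. For mRpL4, which lines the exit tunnel, the values were 146, 63.7 and 87.8. Both genes were in both replicate lists, and for mRpL4 replicate 2 was the higher. The small-subunit gene mRpS6, whose bacterial relative pairs with S18, had 131, 78.6 and 66.1. The gene mRpS16, whose bacterial relative acts in small-subunit assembly, had 129, 56.2 and 72.6. These 4 genes and mRpL32, at 95.3, 62.0 and 40.1, made up the 5 of the 12 that passed in both replicate lists. In yeast and mouse the mRpL32 protein is cut by a protease of the inner membrane before it joins the ribosome.

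The other 7 genes of the lower group passed in 1 replicate list or in neither. Of these, mRpS7, for a protein that organises the head of the small subunit, had 105 in the main list and 70.0 in replicate 1, where it was called. In replicate 2 its candidate reached 33.9 and was not called. The S18 relative mRpS18C had 93.5 in the main list, 40.4 in replicate 1, where it was not called, and 55.6 in replicate 2, where it was. Replicate 1 called mRpL34, which has a bacterial relative, with 75.6 in the main list, 54.6 in replicate 1 and 44.3 in replicate 2. Replicate 2 called mRpL53, which is specific to mitochondria, with 81.9, 37.2 and 49.8. In mRpL34 and mRpL53 the replicate that made the call did so at another site than the strongest main-list summit. For mRpL34 the main summit lay 404 bp upstream and that of replicate 1 at -274 bp. For mRpL53 the strongest main summit and the replicate 1 candidate were at -81 bp. The replicate 2 summit of mRpL53 was at -317 bp, near a second main-list summit at -325 bp with a signal of 78.3.

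Passing in the main list and in neither replicate list were 3 genes. The gene mRpL44, for a large-subunit protein with an RNase III fold in human, had 87.3 in the main list, 50.7 in replicate 1 and 38.1 in replicate 2. For mRpS24 the values were 62.1, 31.3 and 36.3, and for mRpL48 they were 60.0, 31.5 and 33.4. The calls for these 3 rest on the list made from both replicates together. Over all 19 genes replicate 1 was the higher in 13, and the ranks of the replicate signals had a Spearman correlation of 0.88, given as a description.

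**Figure D2:**
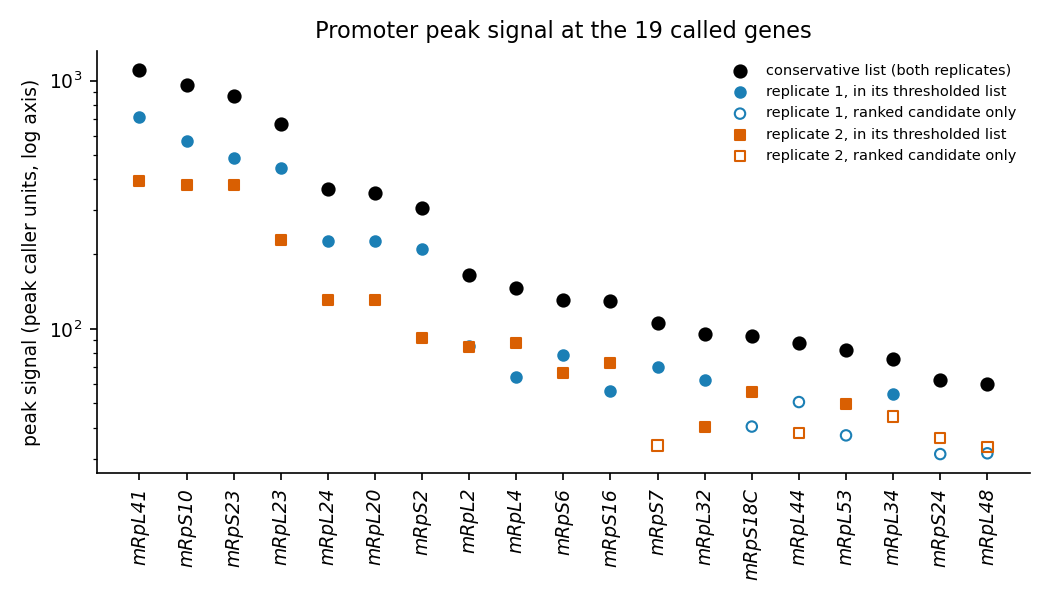
Peak signal (log axis) of the 19 called genes in the conservative list (black), replicate 1 (blue circles) and replicate 2 (orange squares), with open symbols for replicate candidates that did not pass the threshold. The 7 genes from mRpL41 to mRpS2 stand above 300 in the conservative list and carry no open symbol.

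Set against all called protein-coding genes, the median signal of the 19 was close, 131 beside 124 in all 1965. The upper end held more: 7 of the 19 were above 300, beside 229 of 1965 (11.7%), and 4 were above 600, beside 50 of 1965 (2.54%). Those cut-offs were chosen after the values were seen, and no test was made.

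The count moved with the list. The longer list of 4636 peaks called 21 of the 73 genes (28.8%), beside 17.4% of protein-coding genes. Replicate 1 alone called 14 (19.2%, 10.9 to 30.1%) beside 12.1%, and replicate 2 alone called 15 (20.5%, 11.98 to 31.6%) beside 10.6%. Both replicate lists called 12 genes (16.4%, 8.79 to 27.0%), beside 7.64% of all protein-coding genes, and the same 12 were in all 4 thresholded lists. The share was thus above the background in each list, while the interval for replicate 1 includes its background. That background is all protein-coding genes, whatever the arrangement of their promoters, and a closer one, for genes with a facing neighbour, is given below.

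**Figure D3:**
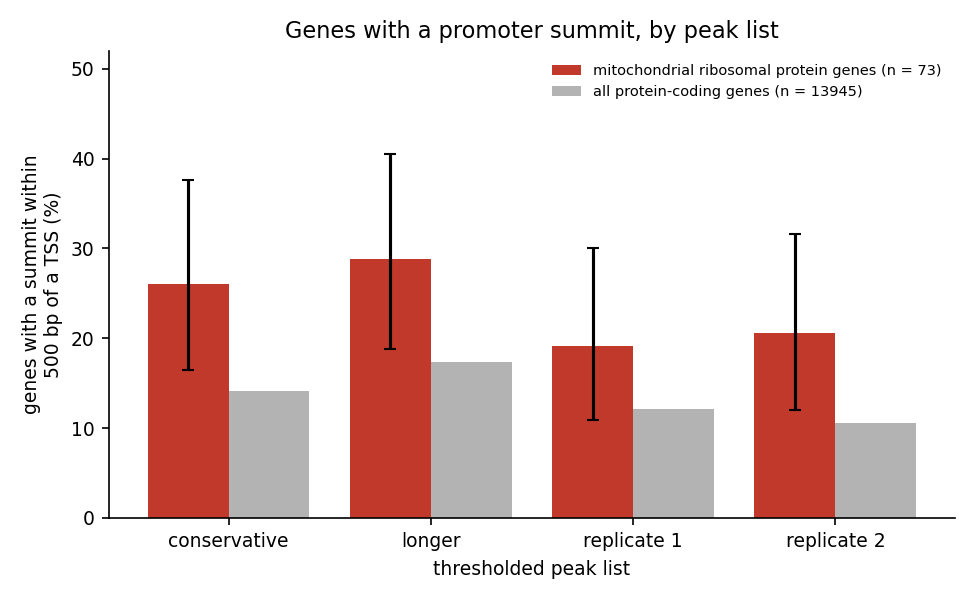
Percent of genes with a summit within 500 bp of a TSS in each of the 4 thresholded lists, for the 73 mitochondrial ribosomal protein genes (red, with 95% exact intervals) and for all 13945 protein-coding genes (grey). The red bars run from 19.2 to 28.8% and the grey bars from 10.6 to 17.4%.

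A further 3 genes were called in another list only. The longer list added mRpL37, with 69.9 in that list and candidates of 46.5 in replicate 1 and 25.5 in replicate 2, and mRpL39, with 54.1, 38.3 and 18.6. Replicate 2 alone added mRpL33, at 50.4, where the replicate 1 candidate had 10.7. Among the ranked candidates of the conservative version, mRpL37 had an irreproducible discovery rate (IDR, low where 2 sets of peaks rank a site alike) of 0.0154, and the lists were thresholded at 0.01. For mRpL39 and mRpL33 it was 0.248 and 0.695. In the ranked candidates of the longer version, the IDRs were 0.00216 for mRpL37, 0.00694 for mRpL39 and 0.0118 for mRpL33, so the first 2 passed there and mRpL33 did not. Together the 4 lists called 22 of the 73 genes.

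The 51 genes in no thresholded list were looked up in the ranked lists of all candidates. A candidate summit within 500 bp was found in both replicates for 27 of them (52.9%), beside 43.1% of the 11259 protein-coding genes in no thresholded list. The 2 replicates need not share a site. At mRpL40 the candidate lay at -155 bp in replicate 1 and at 438 bp in replicate 2. Replicate 1 alone had a candidate for 6 genes and replicate 2 alone for 12. Neither had one for 6 (11.8%, beside 24.3% of such protein-coding genes), which were mRpL13, mRpL30, mRpL45, mRpL51, mRpS25 and mRpS28. Those candidates were weak, 2.42 to 48.3 with a median of 20.7 in replicate 1 (n = 33) and 7.10 to 36.4 with a median of 19.0 in replicate 2 (n = 39). The medians over all such protein-coding genes were 16.5 and 17.8. With candidates counted for all 73 genes, replicate 1 had one for 55 (75.3%, beside 66.6% of protein-coding genes) and replicate 2 for 61 (83.6%, beside 67.2%).

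The strongest of the 51 in the ranked candidates of the conservative version was mRpS11, a small-subunit gene with 62.1, with candidates of 21.9 in replicate 1 and 36.4 in replicate 2. Next were mRpL21 with 61.0 (29.6 and 31.7), mRpS21 with 55.9 (29.0 and 31.2) and mRpL22 with 51.8 (30.7 and 17.9). Their IDRs were 0.0410, 0.0135, 0.0148 and 0.115 in that order. In the longer version they were 0.0152, 0.0135, 0.355 and 0.284, so mRpL21 lay close to the threshold of 0.01 in both versions, while the other 3 changed place between them. Signals of uncalled genes thus reached those of the weakest called ones, mRpS24 and mRpL48. Replicate values of a gene are not always of 1 site: at mRpL21 the candidates lay at -324 bp in replicate 1 and -182 bp in replicate 2.

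Most summits lay upstream of the gene. In 18 of the 19 the summit was upstream of the TSS, with a median of -133 bp and a range of -404 to 83 bp, where negative is upstream. Over all called protein-coding genes 79.9% were upstream, with a median of -125 bp. The exception was mRpL23, with the summit in its own intron 83 bp after the TSS. Of the 19 summits 12 lay between genes, 5 in the 5' untranslated region of the neighbouring gene, and 1 in an intron of another gene, AGO1 at mRpL53. Shares of these places over all called genes are not given here.

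These promoters were rarely alone. A TSS of another gene, coding or not, that lies within 1000 bp upstream and points the opposite way (a head-to-head neighbour) was found for 58 of the 73 genes (79.5%), beside 38.2% of protein-coding genes. In the related gene lists described below the share was 37.5 to 71.4%. It was 63.4% for cytoplasmic ribosomal protein genes and 50% for respiratory chain genes. No member faced another member. All 19 called genes were among the 58 (32.8%, 21.0 to 46.3%). Of all protein-coding genes that have such a neighbour 22.5% were called, a share that lies inside that interval. Of the 15 without one, 0 were called, which allows a share of up to 20% (3 counts of 15), and 8.88% of protein-coding genes without one were called. The gap between the facing TSSs was 24 to 793 bp in called genes, with a median of 264 bp, and 20 to 695 bp in the 39 uncalled ones, with a median of 285 bp, so the ranges overlap.

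The summit lay between the facing TSSs in 13 of the 19 genes. The member's TSS was the nearest in 7, another gene's in 11, and mRpL53 shared its TSS with CG33155. Neither count is given here for other called genes with a head-to-head neighbour, so neither is read as particular to these genes. In mRpS10, mRpS24 and mRpL53 the distances to the 2 nearest genes differed by 5 bp or less. At mRpS10 the summit was 126 bp from the member and 131 bp from Art3, a protein arginine methyltransferase. At mRpL44 the summit was 39 bp from Snr1, a subunit of the Brahma chromatin remodeller, and 251 bp from the member. At mRpS23 it was 101 bp from CenG1A and 391 bp from the member. In the case of mRpL34 it lay 404 bp away, 20 bp inside Dg, which encodes dystroglycan. Which of the genes in a pair a summit acts on, if either, was not tested.

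**Figure D4:**
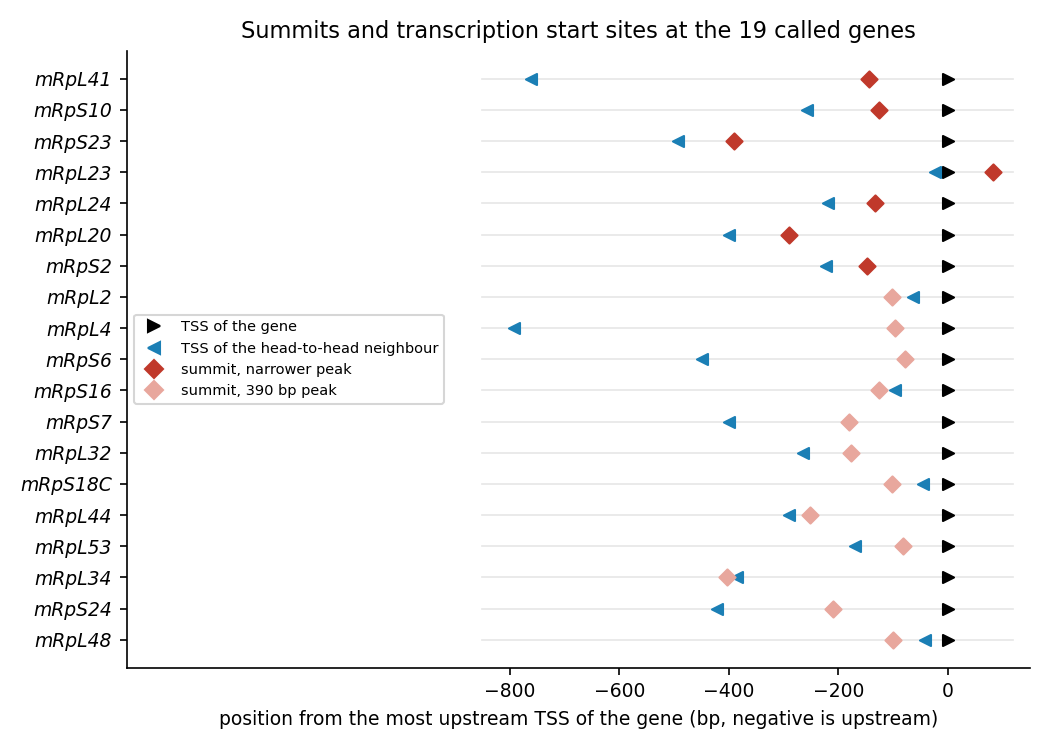
Position of the summit (diamonds), of the TSS of the gene (black arrow at 0) and of the head-to-head neighbour (blue arrow) for the 19 called genes, in bp from the most upstream TSS of the gene, with negative values upstream. In 13 genes the diamond lies between the arrows, and only mRpL23 has it downstream of its own TSS.

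Near the edge of the window, the farthest summits inside 500 bp were those of mRpL34 at -404 bp, mRpS23 at -391 bp and a second one of mRpL53 at -325 bp. The nearest outside lay at -1044 bp, for mRpS21, with a signal of 85.4. A window of 1000 bp therefore called the same number, 19, while the share of all protein-coding genes rose from 14.1% to 17%.

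An E-box with the letters CAGCTG, which reads alike on both strands, gave the widest gap between these genes and all promoters among 10 motifs searched. E-boxes are bound by basic helix-loop-helix proteins, and this one is also listed among the core promoter elements of Drosophila. In promoters of 250 bp before to 50 bp after the TSS it was found in 40 of 73 genes (54.8%), beside 17.7% of all 13945. It sat at the start of the gene: 39 of 45 copies, in 38 genes, began between 75 bp before and 50 bp after the TSS, at a median of 7 bp after it. In that stretch it was found in 52.1% of the 73 genes and 10.8% of all, and in 14.3% of the protein-coding genes with a head-to-head neighbour. The stretch was chosen after the positions were seen. Examples are given as 24 bases on the strand of the gene, from the RefSeq dm6 assembly, with the E-box in capitals, first for 6 called genes and then for 6 that were not called in the main list.
mRpL2 (chr3L:11120848-11120871, plus strand): gccgcgtaaCAGCTGttttcagcc
mRpL23 (chr3L:2373718-2373741, minus strand): gttgacaatCAGCTGtttaaaaca
mRpL32 (chr3R:31252847-31252870, plus strand): tcgatagcaCAGCTGtttcctctt
mRpS2 (chr2L:4850416-4850439, minus strand): actacccacCAGCTGtttaccaaa
mRpS18C (chr3R:30423920-30423943, plus strand): actgccgaaCAGCTGttcacagct
mRpS24 (chr3R:24163511-24163534, minus strand): cacgtcaatCAGCTGttgctggac
mRpL21 (chr3L:19255070-19255093, minus strand): atgctaacaCAGCTGttcgaaaac
mRpL28 (chr2L:4973982-4974005, plus strand): acatacgaaCAGCTGttttttcca
mRpL33 (chrX:4322210-4322233, minus strand): aggcgcagtCAGCTGttcttcgtt
mRpL46 (chr3L:1777428-1777451, plus strand): gccgcaaatCAGCTGttccggctc
mRpS21 (chr3R:13381793-13381816, minus strand): gatattcatCAGCTGtttagcagt
mRpS34 (chr3L:16348067-16348090, plus strand): cagccggcaCAGCTGttcgacctt
All the examples shown are followed by TT, which was not so for every copy. Among the 39 copies 27 were followed by TT or preceded by AA, and others, as at mRpL13 and mRpL48, had neither. How often these bases flank the E-box in all promoters was not counted.

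The E-box was found in called and uncalled genes. It was near the start in 11 of 19 called genes (57.9%) and 27 of 54 uncalled ones (50%), and in 25 of 47 large-subunit and 13 of 26 small-subunit genes. Of the 19 summit windows of 101 bp, 0 held the E-box, which allows a share of up to 15.8% (3 counts of 19). The share over all main-list summits, 3.77%, lies below that limit, so the 0 sets these genes apart from no other summits. In the 11 called genes with one near the start, the summit was 58.5 to 232.5 bp from its centre, with a median of 128.5 bp. Of the 6 copies farther upstream, 5 lay within the same stretch around the TSS of the head-to-head neighbour, as at mRpL24 with betaggt-I, mRpS2 with Mon1 and mRpL32 with qless.

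**Figure D5:**
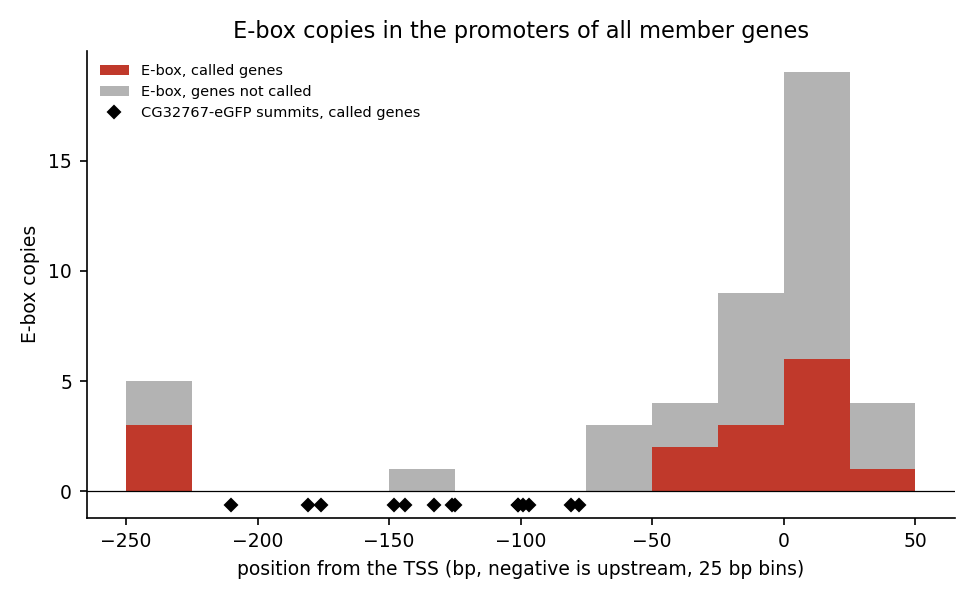
Copies of the E-box CAGCTG in the promoters of the 73 genes by position from the TSS, in 25 bp bins, in red for called and grey for uncalled genes, with black diamonds for the CG32767-eGFP summits of the 14 called genes that lie in this stretch. Of 45 copies 28 start within 25 bp of the TSS, and the summits lie upstream of them.

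The remaining motifs differed less. The DNA replication-related element TATCGATA, bound by the factor DREF, was found in 15 of 73 promoters (20.5%), beside 9.36% of all. Of the 19 summit windows, 0 held it, which allows a share of up to 15.8% (3 counts of 19). Its share over all main-list summits, 1.42%, lies below that limit, so the 0 sets these genes apart from no other summits. The shorter CGATA, which TATCGATA contains, was found in 43 promoters (58.9%) beside 47.4%. The repeat GAGAG was scarcer, 12 promoters (16.4%) beside 29.7%. The core of the Ohler 1 element, GGTCACACT, was in 8 (11.0%) beside 6.05%, and TATAAA in 34 (46.6%) beside 45.8%. The E-box CACGTG was in 5 (6.85%) beside 4.20%, GCATGCGC in 1 (1.37%) beside 1.05%, ACACACA in 5 (6.85%) beside 8.05% and AAAAAAA in 18 (24.7%) beside 26.7%. All words were searched on both strands. The whole promoters of called and uncalled genes had nearly the same A and T content, with medians of 65.3% and 65.2%, beside 62.0% for all genes.

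By the numbering of the proteins, 13 of the 42 genes with numbers shared with bacterial ribosomal proteins were called (31.0%, 17.6 to 47.1%). Of the 31 with higher numbers, 6 were called (19.4%, 7.45 to 37.5%), and the intervals overlap. Numbers are an imperfect guide, since mRpS24, mRpL47 and mRpS28 have bacterial relatives under other names. By chromosome, 6 of 12 genes on arm 2L were called (21.1 to 78.9%), 4 of 12 on 2R, 4 of 17 on 3L and 5 of 21 on 3R (8.22 to 47.2%). These intervals overlap, and the shares of all protein-coding genes on each autosome arm were not counted, so the arms are not compared. On the X 0 of 11 were called, which allows a share of up to 27.3% (3 counts of 11), where 263 of 2196 protein-coding genes were called. Beside the 19 of 62 genes called on the autosome arms (30.6%, 19.6 to 43.7%) stand 14.5% of autosomal protein-coding genes.

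Other gene lists with related functions gave different pictures. Of 93 genes for cytoplasmic ribosomal proteins 44 were called (47.3%, 36.9 to 57.9%), beside 26.0% of the mitochondrial ones, and none had a signal above 300. Their strongest were RpL34b at 195, RpL32 at 183 and RpS20 at 168, and the median was 98.5 beside 131 in the mitochondrial family. The E-box near the start was found in 7 of these 93 (7.53%). Of 88 respiratory chain genes 10 were called (11.4%, 5.59 to 19.9%), led by ND-ASHI at 206, ATPsynF at 158 and ND-24 at 154, and 17 had the E-box near the start (19.3%). Among genes with a head-to-head neighbour, 32 of 59 cytoplasmic and 19 of 58 mitochondrial ribosomal protein genes were called. Of such respiratory chain genes 8 of 44 were called, and of all such protein-coding genes 22.5%.

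Genes that act with the mitochondrial ribosome had call shares of 12.5 to 21.4%, beside 14.1% of all protein-coding genes, and E-box shares of 35.7 to 50%, beside 10.8%. Of 15 mitochondrial tRNA synthetase genes, 2 were called, ProRS-m at 110.3 and ArgRS-m at 86.5, and 7 had the E-box near the start (46.7%). Of 8 mitochondrial translation factor genes, 1 was called, mRF1 at 83.8, and 4 had the E-box there (50%). Of 14 genes for mitochondrial DNA, transcription and RNA, 3 were called, PNPase at 1013, mTerf5 at 104 and mtSSB at 98.5, and 5 had the E-box there (35.7%). These lists are short, and no difference between them was tested.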

How the data were processed

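CG32767-eGFP ChIP-seq was made from 2 biological replicates of whole embryos, with chromatin sonicated to 200 to 800 (the labels name no unit). On dm6 the authors deposited 8 peak lists, 4 thresholded and 4 with all ranked candidates, for each replicate and in 2 versions for both replicates together. For the aligner, the peak caller, the control and any excluded regions, nothing was given in the sources used here. Each peak's deposited signal was used as it stands, to describe and rank peaks within a list. The deposited score is the IDR on another scale, on which the lowest value of 830 stands for 0.01. The −log10 of the IDR in the deposited ranked lists was turned back into an IDR. The other deposited value used was the offset of the summit from the peak start, which the authors gave in bp.

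From these, summits were matched to the TSSs of Ensembl release 115 (BDGP6.54), with Python 3.11.15, pandas 2.3.3, numpy 2.4.6 and scipy 1.17.1. Figures were drawn with matplotlib 3.10.9. A gene's signal is that of its strongest summit within 500 bp, in replicates its strongest ranked candidate, so 1 gene can have different summits in different lists. All 73 genes were matched in RefSeq by FlyBase ID, and sequences came from the RefSeq dm6 assembly. Positions are 1-based. Of 10 symbols written for translation factors 8 matched the annotation, and of 17 for mitochondrial DNA, transcription and RNA 14 did.

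With 1 group and no read counts, no test between groups was made, and shares have 95% exact Clopper-Pearson intervals. The limit of a share of 0 is instead given as 3 counts of the total, which is not an exact interval. The replicates are described as biological by the labels. Members and lists were chosen with earlier results of these data known. Every called gene is named, as are genes called in another list alone, the 4 strongest uncalled ones, those at the edge of the window and the 3 strongest of each other list. Any other gene was named after its values had been seen. The matching of summits and motif positions was tested on simulated data. The 10 alternatives covered the list, the threshold, the window, the TSSs and shared promoters.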

Additional observations from a re-analysis of the deposited data

How the results depend on the processing

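The count of called genes stayed within 1.5 times of 19 under 8 of 10 alternatives, at 14 to 21. Leaving out 1 replicate gave 14 to 15 genes, 8 to 9 of the large and 6 of the small subunit, and a median summit position of -135 to -133 bp. Both other alternatives moved the count further. Requiring IDR 0.01 removed no peak, so the upper 50% of the list by signal was used, which left 12 genes, 6 of them of the large subunit, beside 8.67% of protein-coding genes, at a median of -129.5 bp. Among the 13 members with no other gene's TSS within 1000 bp, 0 were called, of either subunit, beside 8.15% of such protein-coding genes. This is 0 of few genes, and allows a share of up to 23.1% (3 counts of 13). The number of genes whose own TSS was nearest stayed within 1.5 times of 7 under all 8 alternatives run for it. The E-box near the start was counted again with RefSeq TSSs, an alternative added after seeing the data, and was again in 38 genes. RefSeq TSSs gave the main value for every result they were run for, with the same background share. They are therefore not a separate check. No paired analysis was possible because there is 1 group and the results come from no test. Depth limits could not be given, since the lists hold no read counts.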

Other observations

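Of the 6 nearest main-list summits outside the 500 bp, 4 belonged to called genes. One was 1164 bp upstream of mRpS16, in an intron of cg, with a signal of 235, where the promoter summit of mRpS16 had 129. At mRpL34 it was 1206 bp upstream in an intron of Dg, with 144 beside 75.6 at the promoter. At mRpS7 and mRpL23 it lay 1396 and 1488 bp after the TSS, with 72.2 and 65.4. Of the genes that were not called, mRpS21 had one 1044 bp upstream at 85.4, and mRpL13 had a summit 1494 bp after its TSS, in an intron of CG10602, with a signal of 219. That is above the signal of 12 of the 19 promoter summits, in a gene with no candidate within 500 bp in either replicate. Within the ranked list of replicate 1, the strongest candidate of an uncalled gene was that of mRpS26 at 48.3, 260 bp upstream of the TSS. In replicate 2 the strongest candidate of mRpS26 had 27.4 and lay at another site, 159 bp after the TSS.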
